A study of Mus musculus with 36 samples.

Results

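Vegfa and Angpt1, which code for a growth factor and an angiopoietin ligand, differed with diet in visceral adipose tissue of both genotypes studied. They were lower in mice on a high-fat diet (HFD) than in mice on a normal chow diet (NCD), while the other angiopoietin, Angpt2, was higher. Angpt2 in both genotypes, and Vegfa in control mice, no longer passed under some choices of libraries or scaling, given below. In adipocyte Mlkl knockout mice on HFD, Angpt1 lay under the filter on low values. It was tested there only through the NCD mice, so that difference is a description. These genes belong to a set of 10 endothelial and angiogenic genes, chosen by name from the 56748 genes of the table: the ligands Vegfa, Angpt1 and Angpt2, the receptors Kdr, Flt1, Tek and Tie1, the endothelial adhesion genes Pecam1 and Cdh5, and Egfl7. All 10 names occurred in the table. Each gene is described below in epididymal visceral white adipose tissue (visWAT) and in liver, by genotype and by diet.

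Endothelial cells line blood vessels and depend on a pair of signalling systems. Vascular endothelial growth factor A, encoded by Vegfa and made by many cell types, binds the receptor tyrosine kinases encoded by Kdr (VEGFR2, the main signalling receptor) and Flt1 (VEGFR1, which binds the ligand tightly and can act as a decoy). Angiopoietin 1 activates the receptor TIE2, encoded by Tek, and favours stable vessels, angiopoietin 2 acts on the same receptor in a context-dependent way and often opposes angiopoietin 1, and Tie1 encodes a related co-receptor. Pecam1 (CD31) and Cdh5 (VE-cadherin) encode proteins of the contacts between endothelial cells, and Egfl7 encodes a protein that endothelial cells secrete.

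Male C57BL/6J mice, 16 weeks old at the start, ate NCD or HFD for 16 weeks. Both genotypes carried loxP-flanked Mlkl alleles. MlklAdi-KO mice also carried an Adipo-Cre transgene, used to delete Mlkl in mature adipocytes, whereas WT mice were littermates without Cre. Mlkl encodes the executor of necroptosis. RNA with poly(A) tails was sequenced from 18 mice, with 1 library per mouse and tissue (36 libraries), giving 4 WT and 4 MlklAdi-KO mice on NCD and 5 WT and 5 MlklAdi-KO mice on HFD in each tissue. Values are FPKM (fragments scaled to gene length and to library size), so levels can be set side by side between genes. These are bulk samples, in which fewer cells of a type and less RNA per cell cannot be told apart.

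Reads on genes ranged from 20875463 to 25530574 per liver library and from 21580696 to 30322171 per visWAT library. Adipoq was at 743 to 1995 FPKM in visWAT, and Alb at 25146 to 47072 FPKM in liver. Mlkl was at 1.96 to 2.72 FPKM in visWAT of MlklAdi-KO mice and at 3.91 to 6.28 FPKM in visWAT of WT mice apart from mouse 182, which was at 2.29 FPKM and so went against its label. A second visWAT library, labelled WT NCD mouse 183, held 26.6% of its reads in genes of the seminal vesicle and epididymis, against at most 0.0334% in any other visWAT library. The liver library of mouse 182 stood apart as well, with a chi-square per gene of 107.5 to 123 against the other 3 WT NCD liver libraries, which differed among themselves by 12.1 to 20.7. The counts of the 10 genes, the diet ratios and the diet counts of the further gene lists are therefore also given without mice 182 and 183 where WT NCD mice enter. The visWAT libraries of MlklAdi-KO mice on HFD were split as well. Mice 152 and 153 differed from mice 156 and 157 by 118.6 to 144.1 and from each other by 9.82. Adipoq was at 1018 and 891 FPKM in mice 152 and 153, and at 1828, 1994 and 1947 FPKM in mice 151, 156 and 157. Vegfa and Egfl7 were lowest in mice 152 and 153, and all libraries of this group were kept. The adhesion genes Pecam1 and Cdh5 were read in every library of both tissues. They were at 20.5 to 40.6 and 30.1 to 72.8 FPKM in visWAT and at 1.98 to 4.14 and 3.68 to 8.06 FPKM in liver.

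**Figure D1:**
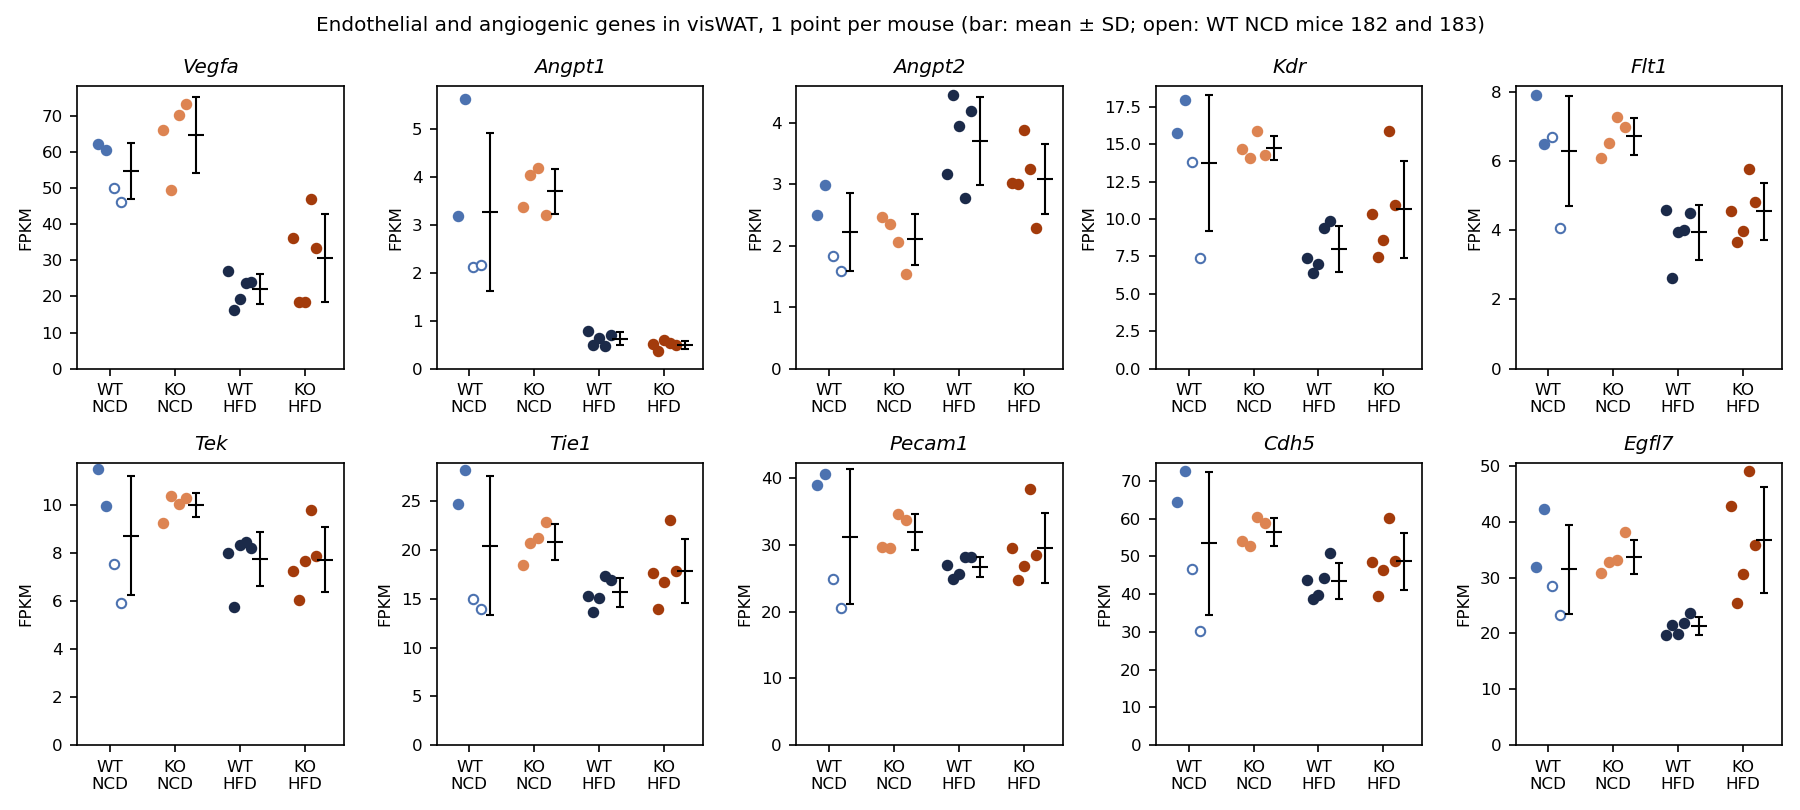
FPKM of the 10 genes in visWAT (linear y axes, 1 panel per gene), by genotype and diet, KO standing for MlklAdi-KO. Each point is 1 mouse, the bar and whiskers are the mean and SD, and open symbols mark WT NCD mice 182 and 183. Angpt1 lies at 2.11 to 5.64 FPKM in all 8 NCD mice and at 0.363 to 0.792 FPKM in all 10 HFD mice.

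Among the ligands in visWAT, Vegfa was at 62.4, 60.7, 50.03 and 46.3 FPKM in WT mice on NCD (mice 165, 180, 182 and 183) and at 27.1, 16.3, 19.4, 23.8 and 24.0 FPKM in WT mice on HFD (mice 154, 155, 161, 162 and 164). Every WT mouse on HFD was below every WT mouse on NCD. On the log2(FPKM + 1) scale, used for all differences below, the diet difference was -1.28 (SE 0.155, adjusted p = 0.000186, limma with Benjamini-Hochberg adjustment over all genes tested). In MlklAdi-KO mice Vegfa was at 66.4, 49.6, 70.3 and 73.3 FPKM on NCD (mice 166, 179, 197 and 199) and at 36.1, 18.4, 18.6, 47.2 and 33.3 FPKM on HFD (mice 151, 152, 153, 156 and 157). These groups did not overlap either, although mouse 156 on HFD came close to mouse 179 on NCD. The difference was -1.13 (SE 0.279, adjusted p = 0.0103, limma).

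Angpt1 was at 3.18, 5.64, 2.11 and 2.16 FPKM in WT mice on NCD and at 0.792, 0.490, 0.639, 0.478 and 0.705 FPKM in WT mice on HFD, in the same order of mice. The mean fell from 3.27 ± 1.65 (SD, n = 4) to 0.621 ± 0.136 FPKM (SD, n = 5), a ratio of 0.190, and the difference was -1.33 on the log2 scale (SE 0.207, adjusted p = 0.000881, limma), which is smaller than the ratio of means because of the pseudocount of 1. The corresponding MlklAdi-KO values were 3.38, 4.03, 4.18 and 3.21 FPKM on NCD and 0.503, 0.363, 0.591, 0.528 and 0.496 FPKM on HFD, a difference of -1.65 (SE 0.0797, adjusted p = 6.49e-05, limma). Its mean in MlklAdi-KO mice on HFD, 0.496 FPKM, lay under the filter of 0.5, so it was tested there only through the NCD mice. The difference of -1.65 is therefore given as a description. Every HFD mouse had less Angpt1 than every NCD mouse of its genotype.

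Angpt2 moved the other way. In WT mice it was at 2.50, 2.99, 1.84 and 1.59 FPKM on NCD and at 3.17, 4.46, 3.95, 2.77 and 4.19 FPKM on HFD, and only mouse 162 on HFD fell within the NCD range. The difference was 0.55 (SE 0.152, adjusted p = 0.0189, limma). In MlklAdi-KO mice it was at 2.46, 2.36, 2.06 and 1.53 FPKM on NCD and at 3.03, 3.01, 3.88, 3.25 and 2.29 FPKM on HFD, a difference of 0.40 (SE 0.125, adjusted p = 0.0299, limma), with mouse 157 on HFD inside the NCD range. In the GENCODE M39 annotation 70.7% of the exon bases of Angpt2 also lie in exons of Mcph1 on the other strand, and whether reads were counted by strand was not given in the sources used here. Mcph1 itself was at 1.15 to 2.39 FPKM in WT mice on NCD and at 1.21 to 1.44 FPKM in WT mice on HFD. With the strand setting unknown, these Mcph1 values cannot show how reads in the shared bases were counted. The part of such reads in the Angpt2 difference was not tested in either genotype.

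The opposite movement of the angiopoietins showed in the ratio of Angpt1 to Angpt2 within each library, which does not depend on how libraries were scaled. The ratio was 1.42 ± 0.326 (SD, n = 4, range 1.15 to 1.89) in WT mice on NCD and 0.172 ± 0.05 (SD, n = 5, range 0.110 to 0.250) on HFD. In MlklAdi-KO mice it was 1.80 ± 0.330 (SD, n = 4) on NCD and 0.164 ± 0.0348 (SD, n = 5) on HFD. Angpt1 exceeded Angpt2 in each of the 8 NCD mice, and Angpt2 exceeded Angpt1 in each of the 10 HFD mice. Without mice 182 and 183 the WT diet difference in log2 ratio was -3.22 (exact permutation p = 0.0952, the smallest that 2 against 5 mice can give). With all mice it was -3.06 in WT and -3.46 in MlklAdi-KO mice, with a two-sided exact permutation p of 0.0159 in each, the smallest that 4 against 5 mice can give, and adjusted p = 0.118 over the 52 ratio tests made (exact permutation). None of those 52 tests passed after adjustment, and 11 had an unadjusted exact p under 0.05.

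**Figure D2:**
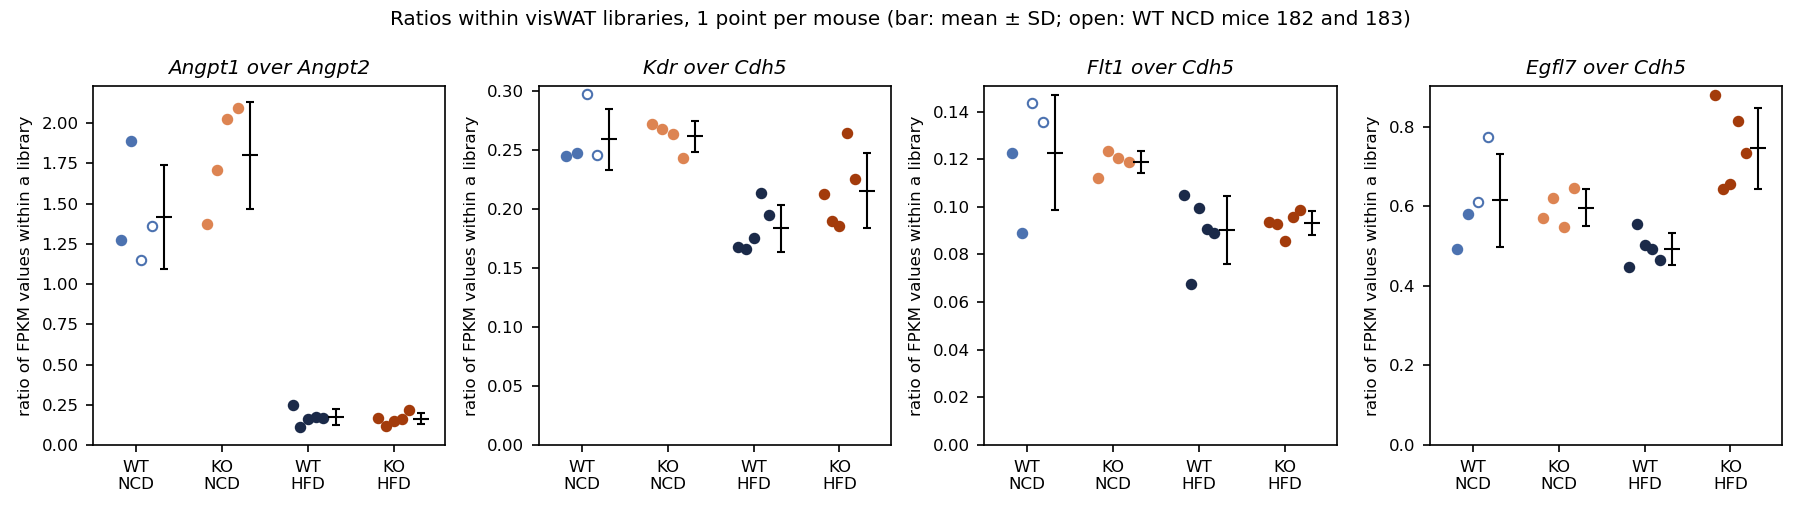
Ratios of FPKM within each visWAT library (linear y axes, no unit), by genotype and diet, KO standing for MlklAdi-KO. Points are mice, the bar and whiskers are the mean and SD, and open symbols mark WT NCD mice 182 and 183. The ratio of Angpt1 to Angpt2 is above 1 in every NCD mouse and at or below 0.250 in every HFD mouse.

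The receptors had smaller estimated differences than Vegfa and Angpt1. Kdr was at 15.8, 17.97, 13.8 and 7.40 FPKM in WT mice on NCD and at 7.36, 6.39, 6.97, 9.42 and 9.89 FPKM on HFD, a difference of -0.66 (SE 0.231, adjusted p = 0.0471, limma). The groups overlapped only through mouse 183. In MlklAdi-KO mice Kdr was at 14.7, 14.1, 15.9 and 14.3 FPKM on NCD and at 10.3, 7.48, 8.63, 15.9 and 10.97 FPKM on HFD, where mouse 156 alone reached the NCD level, and the difference of -0.47 did not pass (adjusted p = 0.0516, limma).

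Flt1 was at 7.91, 6.49, 6.70 and 4.08 FPKM in WT mice on NCD and at 4.60, 2.61, 3.95, 4.01 and 4.51 FPKM on HFD, again overlapping only through mouse 183 (difference -0.55, SE 0.179, adjusted p = 0.0365, limma). In MlklAdi-KO mice it was at 6.08, 6.52, 7.29 and 6.98 FPKM on NCD and at 4.55, 3.65, 3.98, 5.77 and 4.81 FPKM on HFD, with every HFD mouse below every NCD mouse (difference -0.49, SE 0.107, adjusted p = 0.00615, limma). Both VEGF receptors were thus lower on HFD in WT mice, and of the 2 only Flt1 passed in MlklAdi-KO mice.

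Of the TIE receptors, Tek alone passed, in MlklAdi-KO mice. It was at 9.28, 10.4, 10.04 and 10.3 FPKM on NCD and at 7.27, 6.07, 7.67, 9.81 and 7.89 FPKM on HFD there (difference -0.35, SE 0.108, adjusted p = 0.0280, limma), while Tie1, at 18.4 to 22.8 FPKM on NCD and 13.9 to 23.1 FPKM on HFD, did not pass (difference -0.22, adjusted p = 0.176, limma). In WT mice neither passed: Tek was at 11.5, 9.96, 7.55 and 5.92 FPKM on NCD against 5.78 to 8.46 FPKM on HFD (difference -0.13, adjusted p = 0.608, limma), and Tie1 at 24.7, 28.2, 15.0 and 13.9 FPKM against 13.7 to 17.4 FPKM (difference -0.31, adjusted p = 0.255, limma). For both genes the lower NCD values were those of mice 182 and 183.

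The adhesion genes did not pass in either genotype. Pecam1 was at 39.0, 40.6, 24.8 and 20.5 FPKM in WT mice on NCD and at 24.9 to 28.1 FPKM on HFD (difference -0.16, adjusted p = 0.531, limma), and at 29.6 to 34.7 against 24.7 to 38.3 FPKM in MlklAdi-KO mice (difference -0.12, adjusted p = 0.444, limma). Cdh5 was at 64.4, 72.8, 46.6 and 30.1 FPKM in WT mice on NCD and at 38.6 to 50.8 FPKM on HFD (difference -0.22, adjusted p = 0.471, limma), and at 52.7 to 60.5 against 39.4 to 60.3 FPKM in MlklAdi-KO mice (difference -0.22, adjusted p = 0.134, limma). The highest HFD value of both genes in MlklAdi-KO mice came from mouse 156.

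Egfl7 was at 31.8, 42.3, 28.5 and 23.3 FPKM in WT mice on NCD and at 19.7, 21.5, 19.96, 21.8 and 23.7 FPKM on HFD, a difference of -0.51 (SE 0.150, adjusted p = 0.0238, limma). In MlklAdi-KO mice it was at 30.9, 32.8, 33.1 and 38.1 FPKM on NCD and at 42.9, 25.4, 30.6, 49.1 and 35.8 FPKM on HFD, with HFD values on both sides of the NCD range (difference 0.09, adjusted p = 0.71, limma).

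In all, 6 of the 10 genes passed in WT visWAT, 5 lower and 1 higher on HFD, where 37.8% of the 14161 genes tested passed, 15.8% lower and 21.9% higher. The median difference was -0.41 over the 10 genes and -0.01 over all genes. For 2 of the 10 genes (Vegfa and Angpt1) the groups did not overlap, against 33.4% of all genes tested. In MlklAdi-KO visWAT, 5 of 10 passed, 4 lower and 1 higher, against 43.7% of all genes tested (20.3% lower and 23.3% higher), with a median of -0.28 over the 10 and 0.01 over all genes. The groups of 3 genes (Vegfa, Angpt1 and Flt1) did not overlap there, against 38.4% of all genes. Both counts include Angpt1, which passed the filter there only through the NCD mice. When FPKM was rescaled to a common total in each library (the TPM scale), 5 genes passed in MlklAdi-KO mice as well, with Kdr in and Angpt2 out. The visWAT library of mouse 156 held 459.6 FPKM of Alb, against at most 53.2 FPKM in any other. Without mouse 156, 7 genes passed, all lower on HFD (Cdh5, Kdr, Flt1, Tek, Tie1, Vegfa and Angpt1). The share of all genes that passed in that fit is not given here, so this count is a description.

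The WT result depended on the NCD libraries of mice 182 and 183. Without both, with 2 WT NCD mice left, 9 of the 10 genes passed, beside 52.1% of all genes tested. All 9 were lower on HFD, including Pecam1 (-0.56), Cdh5 (-0.65), Tie1 (-0.72) and Tek (-0.43), while Angpt2 no longer passed (0.32, adjusted p = 0.107, limma). Vegfa (-1.45) and Angpt1 (-1.70) passed in that fit too. On the TPM scale the median of all genes moved to 0.34. The split of calls moved from 3108 higher and 2239 lower to 3990 higher and 228 lower. Only Angpt1 and Angpt2 of the 10 passed on that scale, and Vegfa had a difference of -0.82 (adjusted p = 0.0682, limma). The total FPKM was 564718 in the visWAT library of mouse 183, with 304110 in seminal vesicle and epididymis genes. It was 243503 to 309820 in the other WT NCD visWAT libraries. With an equal total without the seminal vesicle and epididymis genes Vegfa passed. The part of those genes in the TPM result was not tested. On the TPM scale without both mice, 9 of the 10 passed, with Angpt2 higher and all others but Tek lower. The share of all genes that passed in that fit is not given here, so this count is a description.

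Other cell types moved with diet in visWAT. All 10 macrophage markers measured were higher on HFD in WT mice and 9 of 10 in MlklAdi-KO mice, and their summed level was 75.6 to 126 FPKM in WT NCD, 1145 to 1965 FPKM in WT HFD, 74.1 to 153 FPKM in MlklAdi-KO NCD and 389 to 1804 FPKM in MlklAdi-KO HFD mice. Of 10 adipocyte markers, 6 were lower and 1 higher in WT mice, and 4 were lower and 2 higher in MlklAdi-KO mice. Of all genes tested, 37.8% passed in WT and 43.7% in MlklAdi-KO mice. Without mice 182 and 183, where 52.1% of all genes passed, all 10 macrophage markers were again higher in WT mice. In that fit 8 adipocyte markers were lower and 1 higher. The summed level of the 10 adipocyte markers was 10342 to 21742 FPKM in WT NCD, 5027 to 6414 FPKM in WT HFD, 16763 to 21337 FPKM in MlklAdi-KO NCD and 5668 to 12557 FPKM in MlklAdi-KO HFD mice. No marker of either list was at 0 throughout a visWAT group. The summed level of the 7 endothelial genes (Pecam1, Cdh5, Kdr, Flt1, Tek, Tie1 and Egfl7) was 105 to 218, 113 to 142, 163 to 185 and 121 to 202 FPKM in the same order of groups. The part of cell composition in the diet differences was not tested.

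Setting each endothelial gene against Cdh5 in the same library gave a view that does not depend on the scaling. Kdr over Cdh5 was 0.259 ± 0.0257 (SD, n = 4) in WT mice on NCD and 0.183 ± 0.0201 (SD, n = 5) on HFD, lower in every HFD mouse (log2 difference -0.50, exact permutation p = 0.0159, adjusted p = 0.118, and -0.43 without mice 182 and 183, exact permutation p = 0.0952). In MlklAdi-KO mice this ratio was 0.261 on NCD and 0.215 on HFD, with overlapping groups (log2 difference -0.29, exact permutation p = 0.0476, adjusted p = 0.225). Flt1 over Cdh5 was 0.119 on NCD and 0.0932 on HFD in MlklAdi-KO mice, lower in every HFD mouse (-0.35, exact permutation p = 0.0159, adjusted p = 0.118). In WT mice it differed by -0.44 with overlapping groups (exact permutation p = 0.0635), and by -0.23 without mice 182 and 183 (exact permutation p = 0.381).

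Egfl7 over Cdh5 had differences of opposite sign in the genotypes. In WT mice it was 0.615 on NCD and 0.493 on HFD (-0.30, exact permutation p = 0.0476, adjusted p = 0.225), and the difference was -0.12 without mice 182 and 183 (exact permutation p = 0.286). In MlklAdi-KO mice it was 0.597 on NCD and 0.746 on HFD (0.32, exact permutation p = 0.0317, adjusted p = 0.183), and the diets overlapped in both genotypes. Pecam1 over Cdh5 was slightly higher in every MlklAdi-KO mouse on HFD (0.10) and Tek over Cdh5 lower in every one (-0.16), each with an exact permutation p of 0.0159 and adjusted p = 0.118. In WT mice these differences were 0.06 and 0.09, or 0.09 and 0.19 without mice 182 and 183, with overlapping groups in the full set (exact permutation p from 0.286 to 0.556). Tie1 over Cdh5 differed by -0.10 in WT mice, with or without mice 182 and 183, and by -0.01 in MlklAdi-KO mice, with mean ratios of 0.389 and 0.362 in WT and 0.368 and 0.365 in MlklAdi-KO mice.

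For the 4 endothelial or VEGF genes that were lower on HFD in WT visWAT and have an entry in the RefSeq promoter table, the window from 250 bases before to 50 after a transcription start is printed so that their start regions can be compared. Entries matched 6 of the 10 genes (Vegfa, Kdr, Flt1, Tek, Tie1 and Egfl7). Where a gene had several starts, the window nearest the deposited gene's 5′ end is shown, and positions are those of an exact match to GRCm39 (mm39), the build of the files: Vegfa chr17:46343254-46343553, minus strand, Kdr chr5:76139066-76139365, minus strand, Flt1 chr5:147662772-147663071, minus strand, and Egfl7 chr2:26470845-26471144, plus strand. Capitals mark matches, on either strand, to GGAAG, the core letters of an ETS site with 1 flanking base, or to ACGTG, the core of a hypoxia response element.
Vegfa: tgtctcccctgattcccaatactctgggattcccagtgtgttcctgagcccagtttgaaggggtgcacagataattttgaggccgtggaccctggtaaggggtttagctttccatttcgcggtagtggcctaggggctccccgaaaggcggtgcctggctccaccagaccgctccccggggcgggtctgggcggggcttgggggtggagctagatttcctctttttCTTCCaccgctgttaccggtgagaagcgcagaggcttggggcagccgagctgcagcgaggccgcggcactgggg
Kdr: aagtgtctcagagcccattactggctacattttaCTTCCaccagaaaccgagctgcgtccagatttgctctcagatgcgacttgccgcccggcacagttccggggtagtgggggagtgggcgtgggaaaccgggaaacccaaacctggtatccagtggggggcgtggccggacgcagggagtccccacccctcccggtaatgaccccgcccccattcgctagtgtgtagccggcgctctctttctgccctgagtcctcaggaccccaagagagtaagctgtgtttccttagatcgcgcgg
Flt1: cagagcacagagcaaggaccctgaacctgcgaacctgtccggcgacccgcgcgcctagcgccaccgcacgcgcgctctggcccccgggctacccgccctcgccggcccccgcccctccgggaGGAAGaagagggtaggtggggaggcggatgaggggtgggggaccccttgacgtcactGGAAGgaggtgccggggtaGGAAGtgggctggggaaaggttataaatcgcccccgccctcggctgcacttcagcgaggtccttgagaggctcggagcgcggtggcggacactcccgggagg
Egfl7: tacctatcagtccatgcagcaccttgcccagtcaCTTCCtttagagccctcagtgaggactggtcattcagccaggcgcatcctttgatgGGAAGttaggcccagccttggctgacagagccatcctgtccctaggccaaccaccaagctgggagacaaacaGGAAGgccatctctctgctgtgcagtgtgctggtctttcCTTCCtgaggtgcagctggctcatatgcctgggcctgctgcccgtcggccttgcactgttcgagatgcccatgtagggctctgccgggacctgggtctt
The ETS letters occurred 1, 1, 3 and 4 times in these windows, and 71.4% of the 32851 windows in the table hold them at least 1 time. The hypoxia letters, found in 19.6% of all windows, occurred in none of the 4. A second Vegfa window, chr17:46336040-46336339, held them 1 time. These are matches of letters and say nothing about binding.

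The genes lie at these GRCm39 positions in the deposited table: Vegfa at chr17:46327919-46343295, Angpt1 at chr15:42288119-42540373, Angpt2 at chr8:18740279-18791578, Kdr at chr5:76093487-76139118, Flt1 at chr5:147498414-147662821, Tek at chr4:94627526-94763213, Tie1 at chr4:118328388-118347258, Pecam1 at chr11:106545043-106641454, Cdh5 at chr8:104828257-104871143 and Egfl7 at chr2:26470026-26483132. Tek, Cdh5 and Egfl7 are on the plus strand and the other 7 on the minus strand. All 10 are annotated as protein coding.

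The genotype comparison in visWAT asked whether loss of Mlkl in adipocytes moved these genes. On HFD none of the 10 passed with limma, where 0.0215% of 13963 genes did, and 1 of the 10, Egfl7, had an unadjusted p under 0.05. Egfl7 was higher in every MlklAdi-KO mouse (25.4 to 49.1 FPKM, mean 36.7 ± 9.48, SD, n = 5) than in every WT mouse (19.7 to 23.7 FPKM, mean 21.3 ± 1.62, SD, n = 5), a ratio of means of 1.72. The difference was 0.72 (SE 0.156) with an unadjusted p of 0.000852 and an adjusted p of 0.221 (limma). It was the only one of the 10 whose groups did not overlap, against 3.01% of all genes tested. DESeq2 on the reads recovered from the table called it (0.79, adjusted p = 0.00249) and edgeR did not (adjusted p = 0.207), and over the other alternatives its adjusted p ranged from 0.0739 to 0.42.

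The ratio of Egfl7 to Cdh5 on HFD was 0.643 to 0.881 in MlklAdi-KO and 0.448 to 0.556 in WT mice, a log2 difference of 0.59 (two-sided exact permutation p = 0.00794, the smallest that 5 against 5 mice can give, adjusted p = 0.118). Macrophage and adipocyte marker sums also differed in range between these groups, as given above, and their part in the Egfl7 difference was not tested. In GENCODE M39, 13.6% of the exon bases of Egfl7 lie in exons of Agpat2, an enzyme of triglyceride synthesis encoded on the other strand. Agpat2 was at 158.5 to 204.9 FPKM in WT and at 162.1 to 303.6 FPKM in MlklAdi-KO mice on HFD, with overlapping groups and medians of 185 and 196 FPKM, well above the level of Egfl7. Reads that fall in the shared bases cannot be told apart without strand.

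For the other 9 genes on HFD, differences ran from -0.20 (Angpt2) to 0.38 (Vegfa), with adjusted p between 0.267 and 0.976 (limma). Kdr, at 6.39 to 9.89 FPKM in WT and 7.48 to 15.9 FPKM in MlklAdi-KO mice, had a difference of 0.35 (SE 0.181). Tek means were 7.77 ± 1.12 and 7.74 ± 1.35 FPKM (SD, n = 5 each).

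On NCD none of the 10 passed with limma (0% of 14063 genes did), edgeR or DESeq2, and none had an unadjusted p under 0.05. Differences ran from -0.05 (Angpt2) to 0.23 (Vegfa, 54.9 ± 7.90 FPKM in WT and 64.9 ± 10.6 FPKM in MlklAdi-KO mice, SD, n = 4 each), and no gene had separate groups, against 2.46% of all genes tested. The test of whether the diet difference itself differed between genotypes called none of the 10 (0% of 14136 genes), with Egfl7 the 1 gene at an unadjusted p under 0.05 (0.60, SE 0.240, adjusted p = 0.352, limma), and edgeR and DESeq2 called none either. None of the 10 passed without mice 182 and 183 on NCD or in the genotype by diet test. The diet difference of Egfl7, which passed in WT and not in MlklAdi-KO mice, was therefore not shown to differ between them.

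**Figure D3:**
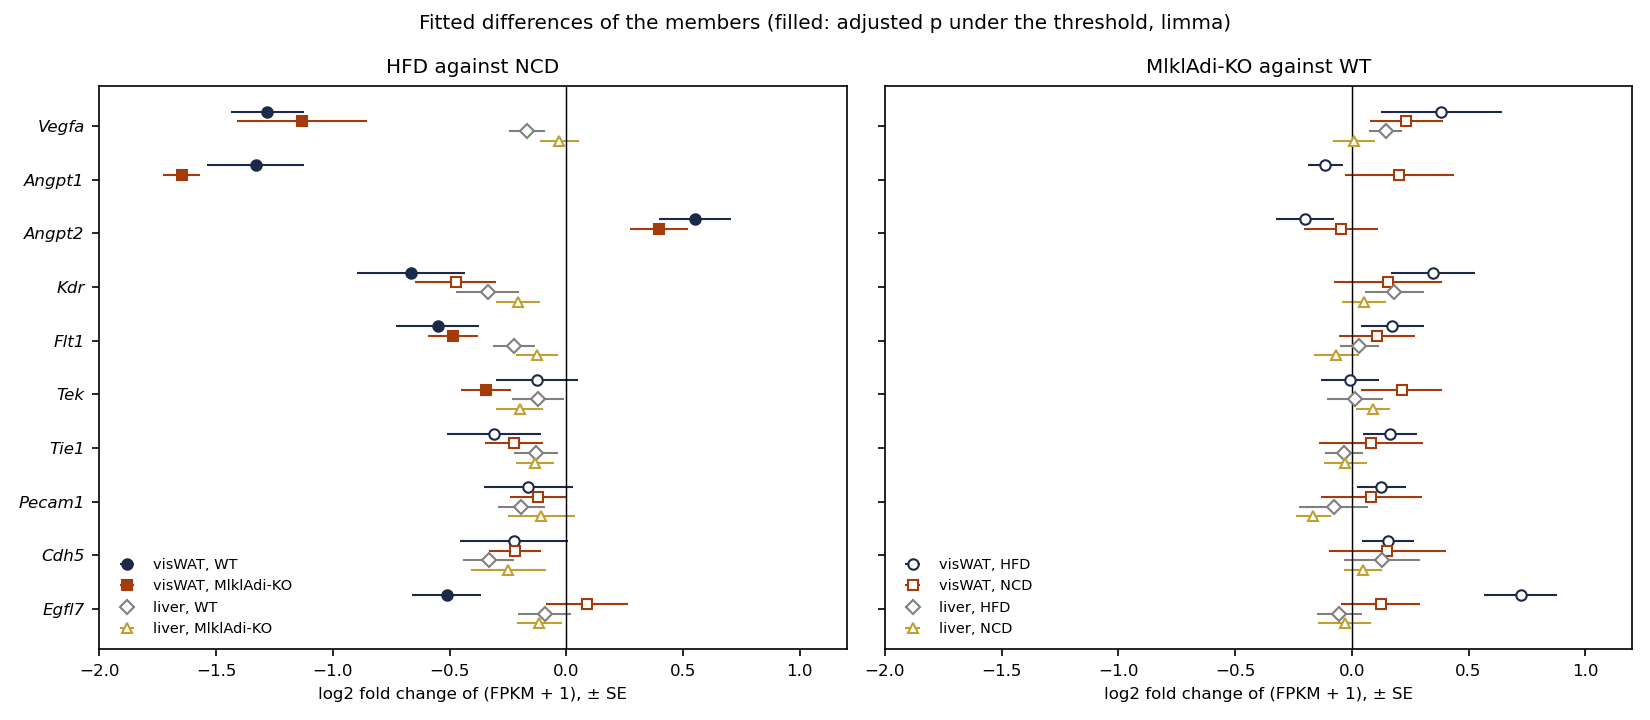
Differences in log2(FPKM + 1) of the 10 genes for the diet comparisons (HFD minus NCD, by genotype) and the genotype comparisons (MlklAdi-KO minus WT, by diet) in visWAT and liver. Points are limma estimates, bars are 1 SE either side, and filled points have an adjusted p under 0.05. Angpt1 and Vegfa lie farthest to the left, at -1.65 to -1.13 in the visWAT diet comparisons, and no liver point is filled.

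In liver no gene of the 10 passed between diets or genotypes. Angpt1 and Angpt2 were at 0.0482 to 0.519 FPKM (4 to 56 reads per library) and were under the filter on low values, so 8 genes were tested. Vegfa had the highest level in liver, at 56.8 ± 5.60 FPKM in WT NCD (SD, n = 4), 57.1 ± 4.38 in MlklAdi-KO NCD (SD, n = 4), 50.3 ± 3.26 in WT HFD (SD, n = 5) and 55.9 ± 5.22 in MlklAdi-KO HFD mice (SD, n = 5).

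None of the 8 passed in the liver diet comparisons with limma, where 25.3% of all genes tested passed in WT and 22.2% in MlklAdi-KO mice. All 8 differences were negative in both genotypes, with medians of -0.18 and -0.13 against 0.00 over all genes, and 3 genes in WT (Cdh5, Kdr and Flt1) and none in MlklAdi-KO mice had an unadjusted p under 0.05. DESeq2 called Cdh5 and Flt1 lower in WT mice, and edgeR none in either genotype. Without the liver library of mouse 182 Vegfa passed in WT mice, and without those of mice 182 and 183 none did. The groups of all 8 genes overlapped, where 24.8% of all genes in WT and 21.5% in MlklAdi-KO mice had separate groups. The nearest to passing was Cdh5 in WT mice, at 6.14, 5.41, 6.11 and 5.73 FPKM on NCD (mice 165, 180, 182 and 183) and at 3.75, 5.46, 3.68, 4.18 and 5.37 FPKM on HFD (mice 154, 155, 161, 162 and 164), a difference of -0.33 (SE 0.110, adjusted p = 0.0524, limma). Kdr in the same mice was at 6.01, 5.91, 4.69 and 5.23 FPKM on NCD and at 3.56, 5.14, 3.003, 4.01 and 5.12 FPKM on HFD (difference -0.34, adjusted p = 0.101, limma). Mice 155 and 164 had the higher HFD values of both genes. In MlklAdi-KO mice the HFD library of mouse 152 had 8.06 FPKM of Cdh5 against 4.16 to 4.48 FPKM in the other 4, and also the highest Pecam1 (4.14 FPKM) and Kdr (5.90 FPKM). Without that library 3 genes (Cdh5, Kdr and Tek) passed, each lower on HFD.

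Between genotypes none of the 8 passed in liver on HFD (0.197% of all genes tested), on NCD (0.00758%) or in the genotype by diet test (0.0151%), with limma, edgeR or DESeq2, and none had an unadjusted p under 0.05. None passed without mice 182 and 183 on NCD or in the genotype by diet test. On NCD Pecam1 was lower in every MlklAdi-KO mouse (2.87 to 3.32 FPKM) than in every WT mouse (3.35 to 4.08 FPKM), with a difference of -0.16 (adjusted p = 0.996, limma). Separate groups occurred for 2.80% of all genes in that comparison. On HFD no gene of the 8 had separate groups, against 2.62% of all genes.

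**Figure D4:**
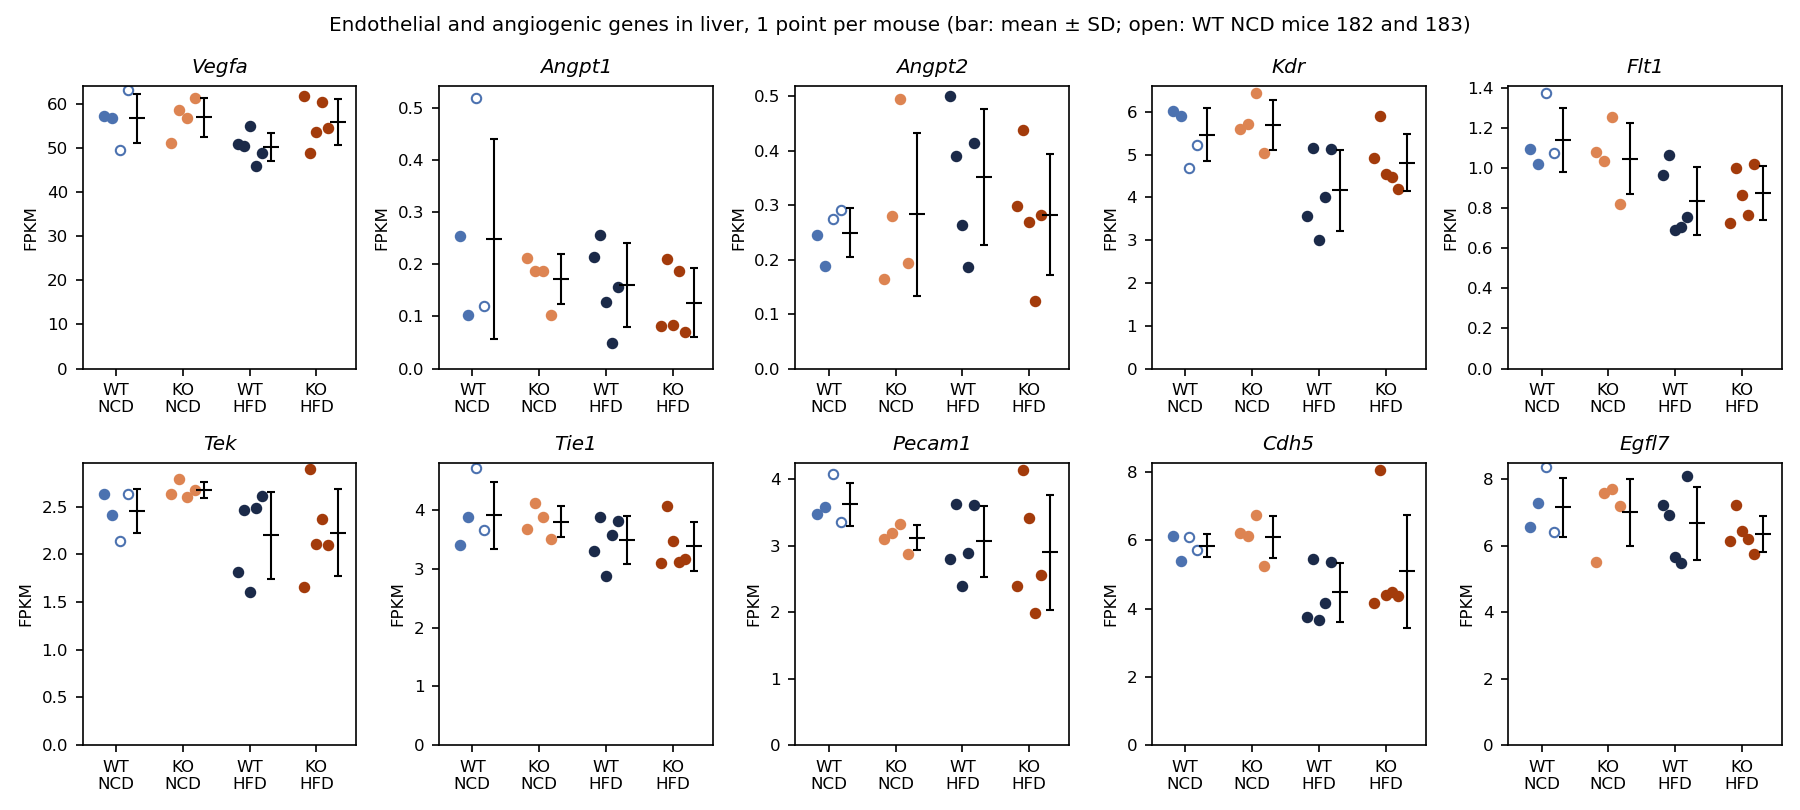
FPKM of the 10 genes in liver (linear y axes, 1 panel per gene), by genotype and diet, KO standing for MlklAdi-KO. Points are mice, the bar and whiskers are the mean and SD, and open symbols mark WT NCD mice 182 and 183, whose visWAT libraries stood apart, as did the liver library of mouse 182. Angpt1 and Angpt2 stay at or below 0.519 FPKM, and the Cdh5 value of 8.06 FPKM belongs to MlklAdi-KO HFD mouse 152.

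Between tissues, the endothelial genes were higher in visWAT. Vegfa was not higher on the deposited scale, but its comparison turned with the scaling, as given below. RNA was extracted by a different method from each tissue, so method and tissue cannot be told apart. Angpt1 and Angpt2 passed the filter on low values only through visWAT, so their differences of 1.71 and 1.35 on NCD are given as a description. Of the other 8 genes, 7 were higher in visWAT of WT mice on NCD (all but Vegfa), and their groups did not overlap, where 65.5% of 14544 genes passed (31.5% higher, 34.0% lower) and 61.1% had separate groups. The differences, visWAT minus liver, were 2.92 for Cdh5, 2.75 for Pecam1, 2.07 for Tie1, 1.97 for Egfl7, 1.74 for Flt1, 1.46 for Tek and 1.13 for Kdr (limma, adjusted p from 8.18e-06 to 0.0029). The same 7 passed without mice 182 and 183. Within the same WT NCD mouse, Cdh5 was 5.26 to 13.5 times and Kdr 1.41 to 3.04 times as high in visWAT as in liver.

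Vegfa was at 0.732 to 1.09 times its liver level in visWAT of the WT NCD mice (difference -0.06, adjusted p = 0.725, limma) and at 0.323 to 0.532 times in the WT HFD mice, where it was lower in visWAT than in liver in all 5 mice (difference -1.17, SE 0.116, adjusted p = 1.85e-06, limma). The comparison of Vegfa between tissues turned with the scaling. On the TPM scale with the 2 WT NCD mice left out, it was higher in visWAT on NCD (1.14, adjusted p = 0.000323, limma), and on the TPM scale with all mice the HFD difference was -0.10 (adjusted p = 0.476, limma). That scale moved the median of all genes to 0.48 on NCD and 0.82 on HFD. On HFD Angpt1 was under the filter and Angpt2 again passed it only through visWAT. Of the other 8 genes, 7 were higher and 1 lower in visWAT, against 84.6% of 14666 genes passing (41.6% higher, 43.0% lower). None of these 8 genes overlapped between tissues, where 76.3% of all genes had separate groups.

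The diet difference itself differed between tissues in WT mice for Vegfa and Angpt1, 2 of the 10 genes, against 40.0% of 14746 genes tested (18.2% lower). Vegfa was lower on HFD by more in visWAT than in liver (-1.11, SE 0.179, adjusted p = 0.00012, limma). Angpt1 had a value of -1.23 (SE 0.244, adjusted p = 0.000777, limma), but at 0.0482 to 0.519 FPKM in liver it could hardly change there on this scale, so this value adds nothing to the difference within visWAT. On the TPM scale Angpt1 (lower) and Angpt2 (higher) passed and Vegfa did not, and without mice 182 and 183 the count was 6, with Flt1, Tie1, Egfl7 and Pecam1 in addition.

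The order of levels changed with diet in visWAT and hardly in liver. In WT and MlklAdi-KO visWAT on NCD it ran Vegfa, Cdh5, Egfl7, Pecam1, Tie1, Kdr, Tek, Flt1, Angpt1 and Angpt2. On HFD Cdh5 came first, Vegfa followed at rank 3, and Angpt2 stood above Angpt1 in both genotypes. In WT visWAT on NCD no neighbours in the order had separate ranges, whereas on HFD Cdh5 was separate from Pecam1, the second, Egfl7 from Tie1, Tie1 from Kdr, Tek from Flt1, and Angpt2 from Angpt1. In all 4 liver groups Vegfa came first with a range apart from the second gene, Egfl7, and the order went on with Cdh5, Kdr, Tie1, Pecam1, Tek, Flt1, Angpt2 and Angpt1. Over the 8 groups 34 of 72 neighbouring pairs had separate ranges.

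Within groups, the visWAT libraries with more Cdh5 also had more of most endothelial genes. Over the 18 visWAT libraries, as deviations from each group's mean of log2(FPKM + 1), the genes most like Cdh5 among 10705 were Arap3 (Pearson r 0.96), Scarf1 (0.96), Pecam1 (0.95), Gimap8 (0.95) and Erg (0.94). Kdr (0.92), Tie1 (0.91), Tek (0.86), Egfl7 (0.81), Flt1 (0.79) and Angpt1 (0.71) followed at ranks 10, 16, 65, 151, 184 and 414, and Vegfa (0.60) and Angpt2 (0.42) came last. In the 18 liver libraries the leading genes of 9777 were Mmrn2 (0.92), Gatm (0.90), Flt4 (0.90), Sdc3 (0.88) and Rap1b (0.88). Pecam1, Kdr, Tek and Tie1 had values of 0.71 to 0.80 there, Egfl7 0.45 and Vegfa -0.54. The libraries share their scaling and tissue, and the visWAT figures include mouse 183's low values. The liver figures include MlklAdi-KO HFD mouse 152, with Cdh5 at 8.06 FPKM against 4.16 to 4.48 FPKM in the rest of its group. All these correlations are therefore descriptions.

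Other genes of the same pathways moved in part with the 10, and their counts stand beside the shares of all genes given above (37.8% in WT and 43.7% in MlklAdi-KO visWAT). That share was 52.1% in WT mice without mice 182 and 183. Of 7 further VEGF ligands and receptors, WT visWAT had Vegfb lower on HFD (-0.71, adjusted p = 0.000928) and Vegfc, a lymphatic growth factor, and Nrp2, a co-receptor, higher (0.64 and 0.55, adjusted p = 0.00384 and 0.00234, limma), and MlklAdi-KO visWAT had none that passed. The lymphatic receptor Flt4 (-0.50) was lower in WT mice in addition without mice 182 and 183, for 4 of the 7. Of 4 further genes of the angiopoietin pathway, Foxo1, a transcription factor held in check by TIE2 signalling, was lower in both genotypes (-1.03 and -0.94), Dok2, an adaptor that binds TIE2, was higher in both (1.92 and 1.16), Angpt4, another ligand, was lower in WT (-0.96) and Ptprb, the phosphatase that acts on TIE2, was lower in MlklAdi-KO mice (-0.44). All 4 passed in WT mice without mice 182 and 183, with Ptprb lower there too (-0.72). Dok2 is also expressed in macrophages. Among 6 secreted or matrix inhibitors of angiogenesis, Serpinf1 (PEDF, 2.12 and 2.05) and the thrombospondin Thbs2 (1.02 and 0.87) were higher in both genotypes, Thbs1 (1.42) was higher in WT mice, and Timp3 (-0.56) was lower in MlklAdi-KO mice. Of the 6, only Serpinf1 (2.22) passed in WT mice without mice 182 and 183.

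Of 15 hypoxia response genes tested in WT visWAT, 3 were higher on HFD, the carbonic anhydrase Car9 (0.85), the collagen hydroxylase P4ha1 (0.64) and the peptide hormone Adm (0.63), and none was lower. Of all genes tested there, 21.9% were higher and 15.8% lower. Without mice 182 and 183, 4 of the hypoxia genes were higher and 7 lower, beside 52.1% of all genes passing, so their count rested on those libraries. In MlklAdi-KO visWAT 2 of 14 were higher and 4 lower, led by Pdk1 (-0.64), Arnt (-0.47) and P4ha1 (0.43), beside 23.3% of all genes higher and 20.3% lower. Among 19 further endothelial surface and junction genes in WT visWAT, 2 were higher and 3 lower, led by Podxl (-0.64), Vwf (-0.64) and Acvrl1 (0.62), and in MlklAdi-KO mice 1 was higher and 2 lower, among them S1pr1 (-1.36). Without mice 182 and 183, 14 of the 19 were lower and 2 higher in WT mice, with S1pr1 (-1.28), Vwf (-0.91) and the tight junction gene Cldn5 (-0.56) among the lower, against 52.1% of all genes passing. No gene of any of these lists passed between genotypes on HFD or NCD in visWAT, the latter also without mice 182 and 183.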

How the data were processed

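RNA with poly(A) tails from visWAT and liver was sequenced, and the authors deposited a table with counts and FPKM for each of the 36 libraries. According to the submitters' processing notes and the methods, reads were cleaned with fastp, aligned to mm39 with HISAT2 and counted with featureCounts 1.5.0-p3. The annotation release, strand setting and handling of multi-mapping reads were not given in the sources used here. The deposited FPKM values were scaled by a library size of 0.737 to 0.812 times the reads on genes in liver and 1.01 to 1.40 times in visWAT, which bears on every comparison between tissues. FPKM gave whole reads for 100% of values (tolerance 0.05), and the gene counts recovered were the input of the count tests. The table held 72 further per-sample columns that were not used.

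Groups were taken from the labels, and each library is from 1 mouse. The mouse number in the labels pairs the tissues. Differences were fitted with limma 3.58.1 (R 4.3.3) on log2(FPKM + 1) for genes with mean FPKM of at least 0.5, two-sided, with Benjamini-Hochberg adjustment over all genes tested and a threshold of 0.05. The scripts were tested on simulated data. The 10 genes, the further lists and the alternatives were chosen with earlier results of these data known. All 10 genes are named whatever their values. Of the other lists, counts are given and at most the 3 genes per list and comparison with the largest difference among those that passed are named, and the 5 genes most like Cdh5 per tissue are named among those with mean FPKM of at least 1. Where a count of 5 or fewer needed names, the genes were named after their values were seen. Ratios were tested by exact permutation. Alternatives were edgeR 4.0.16 and DESeq2 1.42.0 on recovered reads, a pseudocount of 0.1, no filter or a filter of 1, the TPM scale, an equal sum without seminal vesicle and epididymis genes, all groups of a tissue in 1 fit, a mouse block, and leaving out mice. The further lists without mice 182 and 183 were added after seeing the data. Promoter windows came from the RefSeq table (GRCm38.p6) and were located in GRCm39 by exact match. Python 3.11.15 was used for tables and figures. Replicate libraries of a group differed by a chi-square per gene of at least 9.82, so none was treated as a repeat.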

Additional observations from a re-analysis of the deposited data

Results flagged for a closer look

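In visWAT of WT mice on HFD, Tek was at 5.78 FPKM in mouse 155 and at 8.01 to 8.46 FPKM in the other 4 mice, a gap large for the range of the group by Dixon's test. In liver of MlklAdi-KO mice on HFD, Cdh5 was at 8.06 FPKM in mouse 152 and at 4.16 to 4.48 FPKM in the other 4, by the same test. These were 2 of 80 groups tested (2.5%), where chance gives about 1 in 20.

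The effect of HFD in WT mice differed between visWAT and liver for Vegfa (interaction -1.11 on the log2(FPKM + 1) scale, adjusted p = 0.00012, limma) and for Angpt1 (-1.23, adjusted p = 0.000777, limma). On the TPM scale Vegfa did not pass this interaction test. Vegfa was lower on HFD in all 5 visWAT libraries than in any NCD library, while its liver values were 46.1 to 55.1 FPKM on HFD and 49.6 to 63.3 FPKM on NCD. Angpt1 was at 0.0482 to 0.519 FPKM in liver (4 to 56 reads) and passed the filter only through visWAT. With a pseudocount of 1 it could show little change in liver, so its value gives no support beyond the difference within visWAT.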

How the results depend on the processing

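The count of the 10 genes that passed in WT visWAT across diets (6 with all libraries) was 9 without mice 182 and 183, also on the TPM scale, 2 on the TPM scale (Angpt1 and Angpt2), 3 with an equal sum without seminal vesicle and epididymis genes (Vegfa, Angpt1 and Angpt2) and 3 to 7 when each mouse was left out, with 3 without WT NCD mouse 165 or WT HFD mouse 161. In MlklAdi-KO visWAT (5) it was 3 with no filter and 3 to 7 when each mouse was left out, with 3 without mouse 197, 199 or 151. Vegfa and Angpt1 passed under every left-out mouse in both, but with all mice Angpt1 entered the MlklAdi-KO test only through the NCD mice. For visWAT HFD genotype (0) DESeq2 gave 1 (Egfl7). In liver of WT mice across diets (0) the count was 1 with a filter of 1 (Cdh5), 2 with DESeq2, 1 with all 4 groups in the fit (Kdr) and 0 to 1 over left-out mice (Cdh5 without mouse 155 or 164, Vegfa without mouse 182). In liver of MlklAdi-KO mice across diets it was 0 to 3, with 3 without mouse 152. For WT tissue by diet (2) it was 1 with a filter of 1, 6 without mice 182 and 183, 4 on the TPM scale without both (an alternative added after seeing the data) and 2 to 4 over left-out mice, with 4 without mouse 183. The other counts were 0 to 0, or 9 to 9 between tissues, over left-out mice. Those tissue counts include Angpt1 and Angpt2 on NCD and Angpt2 on HFD, which passed the filter only through visWAT and so add nothing.

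Directions reversed in 3 alternative fits: Vegfa in the WT NCD tissue comparison, at 0.86 with an equal sum without seminal vesicle and epididymis genes and 1.14 on the TPM scale without mice 182 and 183, and Pecam1 in the WT tissue by diet test, at -0.39 without both mice. The cause was not tested. The mouse block for the paired tissues left counts of 9, 9 and 2 and changed no call of the 10 genes. Each of these counts includes Angpt1 or Angpt2, which passed the filter only through visWAT.

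On the TPM scale the calls over all genes moved from 4580 higher and 4947 lower to 6009 and 2084 in the WT NCD tissue comparison, from 6101 and 6313 to 11089 and 2704 on HFD, from 3214 and 2687 to 4396 and 625 for tissue by diet, and from 17 and 9 to 12 and 15 for liver genotype on HFD. The median of all genes moved to 0.29 for visWAT genotype on NCD and -0.35 for genotype by diet. Over all alternatives, the single-gene results kept direction and side of the threshold in 2138 cases, gained a call in 38, lost one in 44 and reversed in 3, and ratios kept theirs in 453, gained in 6 and lost in 35. Liver Angpt1 and Angpt2, at 4 to 56 reads, were under the filter in every liver comparison.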

Other observations

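Other vessel-related gene lists in visWAT were mixed, beside 37.8% of all genes that passed in WT mice (21.9% higher, 15.8% lower) and 43.7% in MlklAdi-KO mice (23.3% higher, 20.3% lower). On HFD in WT mice, the endothelial transcription factors had 1 of 11 higher and 2 lower, led by Sox7 (-0.94), Elk3 (0.42) and the flow-responsive Klf2 (-0.39), and in MlklAdi-KO mice 1 higher and 5 lower, led by Sox7 (-0.98), Klf2 (-0.59) and Klf4 (-0.54). Of 10 Notch pathway genes, 2 were higher and 2 lower in WT mice (Rbpj 0.77, Jag2 -0.66, Lfng 0.66), and 2 higher and 3 lower in MlklAdi-KO mice (Notch1 -0.73, Dll1 -0.50, Hey1 0.39). Of 7 sprouting genes, Cxcr4 (1.26), also present in leukocytes, was the 1 higher in WT mice, and Cxcr4 (0.85), Nid2 (-0.81) and Aplnr (0.55) passed in MlklAdi-KO mice. The adhesion molecule Icam1 was higher in both genotypes (0.97 and 0.68) and Vcam1 (0.59) in WT mice, of 3 activation genes. Of 9 mural cell genes, 1 was higher and 2 lower in WT mice (Myh11 -1.76, Pdgfrb 0.99, Rgs5 -0.83), and Rgs5 (-0.75), Pdgfrb (0.75) and Kcnj8 (0.71) passed in MlklAdi-KO mice. Lymphatic genes had 2 of 3 lower in WT mice (Ccl21a -1.84, Mmrn1 -0.98) and 1 of 3 higher in MlklAdi-KO mice (Lyve1 0.69). All values are limma differences with adjusted p under 0.05, and macrophage markers rose in the same samples.

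Some WT counts moved without NCD mice 182 and 183, when 52.1% of all genes passed. The endothelial transcription factors then had 7 of 11 lower, among them Sox7 (-1.34) and Erg (-0.75), and 1 higher, and the Notch pathway had 6 of 10 lower, among them Dll4 (-0.86), and 2 higher. The sprouting genes had 1 higher and 1 lower, and the activation (2 higher) and lymphatic (2 lower) counts did not move. The summed level of the 9 mural markers was 461 FPKM in mouse 183 and 142 to 182 FPKM in the other WT NCD mice, against 115 to 145 FPKM in WT HFD, 130 to 181 FPKM in MlklAdi-KO NCD and 121 to 225 FPKM in MlklAdi-KO HFD mice. Without mice 182 and 183, 3 of the 9 were lower (Rgs5 -1.16, Myh11 -1.12 and Abcc9 -0.46) and Pdgfrb (0.67) was higher.

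In liver, where 25.3% of all genes passed across diets in WT and 22.2% in MlklAdi-KO mice, Vegfb was lower on HFD in both genotypes (-0.73 and -0.91), as were Vegfd (-0.51 and -0.42) and Klf2 (-0.96 and -0.82), and of the sprouting genes Unc5b was higher (1.04 and 1.03) and Nid2 lower (-1.27 and -0.86). These were 2 of 6 VEGF genes and 2 of 5 sprouting genes in each genotype, and of 9 endothelial transcription factors 4 were lower in WT and 1 in MlklAdi-KO mice. The VEGF count includes Vegfd, whose HFD means of 0.489 (WT) and 0.461 FPKM (MlklAdi-KO) lay under the filter of 0.5. Vegfd was tested only through the NCD mice, so its differences are given as a description. Of 9 sinusoidal markers 1 was lower in WT (Gpr182, -0.49) and 2 in MlklAdi-KO mice (Bmp2 -0.44, Gpr182 -0.29), and none was higher. Without mice 182 and 183 the lower sinusoidal marker in WT mice was Clec4g (-0.40) instead, 3 transcription factors were lower, and the VEGF and sprouting counts did not move, beside 20.8% of all genes. Of the hypoxia response genes tested, 3 of 16 were higher and 2 lower in WT mice, led by Bnip3 (1.09), Ndrg1 (-0.88) and Arnt (0.61), and 4 of 15 higher and 1 lower in MlklAdi-KO mice (Bnip3 0.89, Ndrg1 -0.82, Arnt 0.61).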
